A study of Mus musculus with 12 samples.

Results

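The mRNAs described here are those whose array signal was higher with POVPC than with DMSO in mouse aortic smooth muscle cells (MASMC), whether or not Oct4 had been knocked down. POVPC is an oxidized phospholipid of the kind found in oxidized low-density lipoprotein, and DMSO is its vehicle. An mRNA probe was taken when, in siNT and in siOCT4 cells alike, the lowest of the 3 POVPC arrays lay above the highest of the 3 DMSO arrays and the mean log2 difference was at least 1. Of 22359 mRNA probes, 308 met this in siNT cells, 497 in siOCT4 cells and 65 in both. The 65 were 21.1% of the first set and 13.1% of the second. Probes for Mvk, Hsd17b7, Tm7sf2, Pmvk, Mvd and Lss, genes of sterol biosynthesis, were among the 65 and were set aside, which left 59 members. Of these, 37 carry a gene name, for 36 genes, and 22 have none in the annotation used here. That annotation lists only RNAs the study had picked as altered by POVPC in siNT cells. The members were chosen by their POVPC minus DMSO differences, so those differences are given below as a description without tests.

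The design crosses an siRNA with a lipid in primary MASMC. The siRNA was directed at Oct4 (siOCT4), a transcription factor of pluripotent cells, or at no target (siNT), and acted for 48 h without serum on cultures that had reached 70% confluency. The lipid was POVPC at 10 µg/mL, with DMSO alone as its control, and was left on for 24 h, which makes 4 groups of 3 arrays, siNT-DMSO and siNT-POVPC without the knockdown and siOCT4-DMSO with siOCT4-POVPC after it. The labels do not say whether the 3 samples of a group came from separate cultures or animals, so the spread between them may be technical. The arrays lay on 2 slides. Slide 1 held all siNT arrays and siOCT4-DMSO replicates 1 and 2, and slide 2 held siOCT4-DMSO replicate 3 and all siOCT4-POVPC arrays. POVPC in siOCT4 cells therefore cannot be told apart from the slide except against siOCT4-DMSO replicate 3. Nor can siOCT4 against siNT be told apart from the slide in cells given POVPC. Each array had between 19016 and 20834 mRNA probes well above background, with 19016 to 19170 on the siOCT4-POVPC arrays, the lowest of the 4 groups. No probe named Oct4 (Pou5f1) was found, so the knockdown itself was not checked here. Of 9 smooth muscle markers listed, 2 have a named probe, Tagln and Smtn, and their differences were -0.88 and -0.73 in siNT and -0.44 and 0.21 in siOCT4 cells. Of 6 fibroblast markers Dpt and Pdgfra have one, with 2.11 and -0.83 in siNT and 0.27 and 0.20 in siOCT4 cells. No probe was named for the endothelial or leukocyte markers, so the labelled cell type could not be checked against its defining markers beyond these 2. On the siNT-DMSO arrays Tagln was at 5.45, 5.54 and 5.23 and Smtn at 5.54, 5.36 and 5.09. The part of other cell types in the results was not tested.

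Oxidized phospholipids such as POVPC accumulate in atherosclerotic lesions, where smooth muscle cells lose contractile proteins, migrate and make matrix. Cells build membrane lipids from acetyl-CoA. Synthetases make acetyl-CoA from acetate, desaturases put double bonds into fatty acids, and sterol synthesis uses the same acetyl-CoA. Many of these enzymes are induced together when the sterol regulatory element binding proteins (SREBPs) are activated. Fibrillar collagen, osteopontin and adhesion proteins are known to vary with the phenotype of smooth muscle cells.

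The signals below were read by probes of 60 bases, and the first 30 bases of the probes for the genes the results turn on are shown so that they can be told from other probes of the same genes. Acss2 and Anxa8 each have 2 named probes. In both pairs the probes share no run of bases longer than 6 and 7, respectively, so they read different stretches of the transcripts. The desaturase probes of Scd1 and Scd4 share no run longer than 5 bases.
Acss2, member probe: ctgtcatcaaccatctcttcagtcaccgct
Acss2, other probe: taaaacacgctcagtagcaccaccgcactg
Scd1: ttgtactgattgagattgtatttgttccta
Scd4: cccttcgtttcaatggcatctttaggcgag
Fads2: agccgttgctgagggccctgatcgacattg
Aqp1: ttctttgcaattgaatttcatcttatggta
Anxa8, first probe: aggccctgcatgaagcggtgttcgaggaat
Anxa8, second probe: acggaaacatcaacatgaagaaagaagctt
Ndufa4l2: tccctggggatcaaacagaagcagccgtgg
Pla2r1: tgctcatgaattttgcaaaagtgaaggatc

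RefSeq promoters of GRCm38.p6 were found for 24 of the 36 genes, 32 start sites in all, and the 250 bases before each start were searched on both strands. Scd1, Col1a1 and Gnai2 were among the genes with no promoter found, so they were not searched. Of the Scd4 window only 16 bases lie before its annotated transcript. The short form of the sterol regulatory element, TCACNCCAC, was present in 1.05% of all 32851 promoters and in 1 of the 32 of the members, a promoter of Spp1, where it begins 61 bases before the start and also carries the leading A of the longer form. The antioxidant response element TGACNNNGC was in 10.2% of all promoters and in 2 of the 32, one each of Acss2 and Gcnt2. The E-box CACGTG was in 6.02% of all and in 2 of the 32, of Espl1 and Mxd4. The CArG box, which binds serum response factor, was in 1.47% of all and in 1 of the 32, of Tmem63a. No letters of these motifs were found in the window before the Fads2 start. The stretches below lie upstream of the annotated transcripts, and capitals mark the motifs.
Spp1, chr5:104434861-104435110, plus strand: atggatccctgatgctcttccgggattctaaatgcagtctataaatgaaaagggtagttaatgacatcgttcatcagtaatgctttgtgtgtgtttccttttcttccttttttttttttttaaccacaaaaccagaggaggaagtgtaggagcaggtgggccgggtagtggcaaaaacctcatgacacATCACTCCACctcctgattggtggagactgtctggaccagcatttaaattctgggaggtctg
Acss2, chr2:155517793-155517947, plus strand: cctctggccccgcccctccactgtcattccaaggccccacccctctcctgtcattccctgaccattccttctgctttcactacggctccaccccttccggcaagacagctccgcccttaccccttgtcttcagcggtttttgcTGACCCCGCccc
Fads2, chr19:10101504-10101753, minus strand: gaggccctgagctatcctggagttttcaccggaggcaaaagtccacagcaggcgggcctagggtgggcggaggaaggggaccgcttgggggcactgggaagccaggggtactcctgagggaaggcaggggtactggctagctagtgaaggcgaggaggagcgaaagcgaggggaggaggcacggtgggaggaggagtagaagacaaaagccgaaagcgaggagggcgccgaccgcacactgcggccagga

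Over the 59 members the median POVPC minus DMSO difference in log2 signal was 1.44 in siNT cells, with a range of 1.07 to 3.16, and 1.35 in siOCT4 cells, with a range of 1.00 to 3.14. Over the 20625 mRNA probes tested the medians were -0.02 and 0.00. The difference was larger in siNT cells for 38 members and larger in siOCT4 cells for 21, and the 2 differences lay within 0.5 of each other for 44. Bulk RNA cannot tell a higher level per cell from more cells of a type. In the DMSO groups the members were of ordinary brightness, with a median log2 level of 6.75 in siNT-DMSO and 6.94 in siOCT4-DMSO against 6.85 and 6.84 over all mRNA probes. With POVPC their medians were 8.25 and 8.23. All 59 members passed the filter on dim probes, and 49 were well above background on all 12 arrays. On the scanner values used here the arrays were apart for 59 members in siNT and 58 in siOCT4 cells, and the exception was the unnamed ASMM10AP1B100039866V4.

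**Figure D1:**
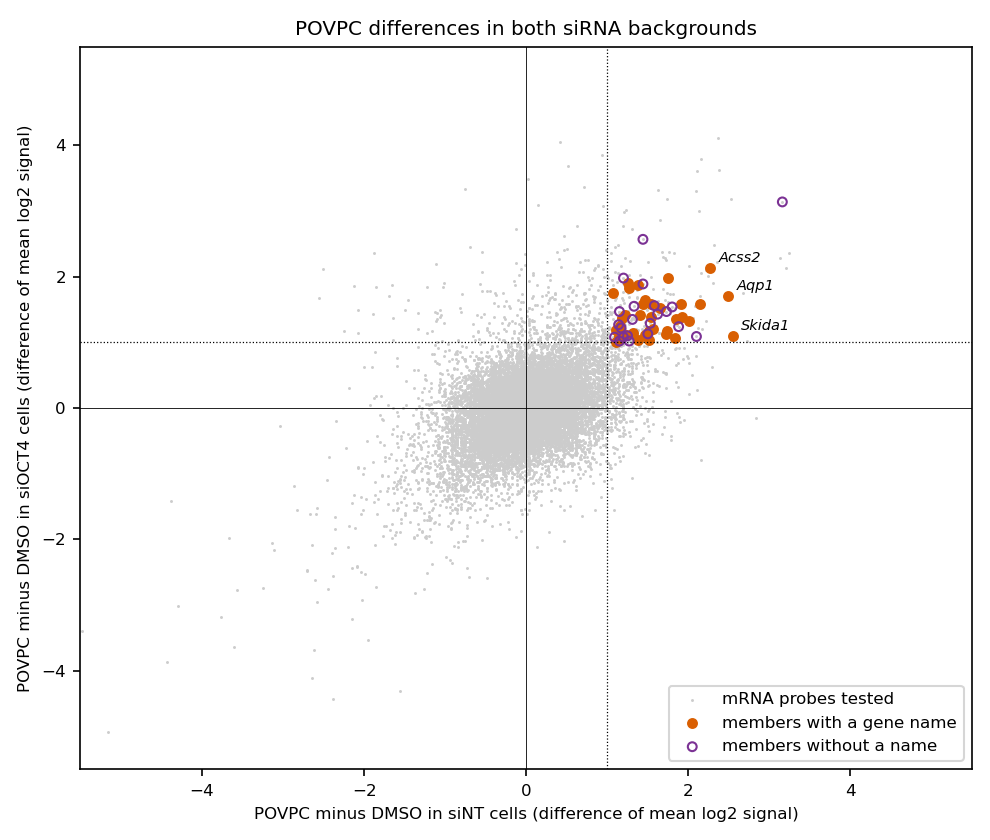
Each point is an mRNA probe, with the POVPC minus DMSO difference of mean log2 signal in siNT cells on the horizontal axis and in siOCT4 cells on the vertical axis (3 arrays per group). Grey points are the 20625 probes tested, filled points the named members, open points the 22 members without a name, and dotted lines the difference of 1 that the choice used; Acss2 lay at 2.27 and 2.13, and other probes in the same corner had overlapping arrays or were set aside by name.

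The edge of the choice was not sharp. On the authors' log2 values, on which the choice was made, Tmem63a had differences of 1.11 and 1.00 and Tlcd1 of 1.38 and 1.03. Just outside were Apoh (0.996 and 1.1), Thra (0.976 and 1.14) and Lrp1 (0.967 and 1.02), whose arrays did not overlap either. In all, 427 mRNA probes were higher without overlap in both backgrounds, and 362 of them had a smaller difference under 1. The 243 probes that met the rule in siNT cells only had a median difference of 0.27 in siOCT4 cells, positive for 168. The 432 that met it in siOCT4 cells only had a median of 0.72 in siNT cells, positive for 378. No probe met the rule upwards in one background and downwards in the other.

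Of the named members, 12 belong to the gene lists used here, and the largest groups, with 4 each, are fatty acid synthesis and desaturation and the extracellular matrix. Of the 28 genes listed, 8 have a named probe, with 9 probes in all, and 4 of these probes are members. Names came from an annotation of RNAs that the study had picked as altered by POVPC in siNT cells, so a count of named genes, in this list or the others, is not independent evidence of direction. All 9 were higher with POVPC in both backgrounds, with median differences of 1.57 in siNT and 0.88 in siOCT4 cells. The member genes were Acss2, Scd1, Scd4 and Fads2, and Elovl5, which lengthens fatty acids, met the rule in siNT cells only (1.57 and 0.38).

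Acss2, the cytosolic synthetase that makes acetyl-CoA from acetate, lies on chromosome 2 from 155517948 to 155562746. On the log2 scale it read 7.98, 8.35 and 8.94 in siNT-DMSO, 10.99, 11.73 and 9.36 in siNT-POVPC, 9.41, 9.15 and 7.16 in siOCT4-DMSO and 11.35, 10.16 and 10.61 in siOCT4-POVPC. In neither background did the groups overlap, and siNT-POVPC replicate 3 was only just above its DMSO arrays, while siOCT4-DMSO replicate 3, on slide 2, was the lowest of all 12. Group means were 8.42 ± 0.48 and 10.69 ± 1.22 in siNT cells and 8.57 ± 1.23 and 10.70 ± 0.60 in siOCT4 cells (SD, n = 3), which is 4.83-fold and 4.38-fold. The first was 7.66 without siNT-POVPC replicate 3, and the second 2.69 without siOCT4-DMSO replicate 3. The other Acss2 probe was 1.72 higher in siNT cells but 0.52 higher in siOCT4 cells, and did not meet the rule there.

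Scd1, on chromosome 19 from 44394451 to 44407709, encodes a stearoyl-CoA desaturase, which turns saturated into monounsaturated fatty acids. The arrays gave log2 signals of 15.24, 13.02 and 15.05 in siNT-DMSO, 16.65, 16.77 and 16.35 in siNT-POVPC, 15.38, 14.92 and 14.22 in siOCT4-DMSO and 16.65, 16.30 and 16.33 in siOCT4-POVPC. The 6 POVPC arrays were close together, and siNT-DMSO replicate 2 was far below the other DMSO arrays. The folds were 4.45, or 2.72 without that array, and 3.00. Scd4, a related desaturase on chromosome 19 from 44333092 to 44346743, had 6.87, 7.08 and 7.27 in siNT-DMSO and 8.5, 8.61 and 7.64 in siNT-POVPC. In siOCT4 cells it had 7.77, 8.07 and 6.78 with DMSO and 9.24, 8.57 and 8.93 with POVPC. The groups were apart in both backgrounds by small gaps, and the folds were 2.26 and 2.58. Fads2, on chromosome 19 from 10064164 to 10101503, encodes a desaturase at the entry to the synthesis of long polyunsaturated fatty acids. Log2 signals were 6.21, 6.23 and 6.87 in siNT-DMSO, 8.69, 8.97 and 7.38 in siNT-POVPC, 7.54, 7.37 and 6.35 in siOCT4-DMSO and 8.92, 8.36 and 8.74 in siOCT4-POVPC. Here again siNT-POVPC replicate 3 lay nearest to DMSO, and the folds were 3.76 and 3.00.

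The list for sterol regulation and uptake has 4 named genes of 19, and 1 is a member. This is Erg28, which encodes a membrane protein of the endoplasmic reticulum that tethers enzymes of sterol synthesis, on chromosome 12 from 85815448 to 85824522. Its log2 signal was 8.30, 8.05 and 8.47 in siNT-DMSO, 10.31, 10.75 and 9.26 in siNT-POVPC, 8.09, 8.29 and 7.39 in siOCT4-DMSO and 9.27, 8.69 and 8.99 in siOCT4-POVPC. All POVPC arrays were above all DMSO arrays, and the folds were 3.55 in siNT and 2.09 in siOCT4 cells. Of the other 3 genes, Erlin2, which takes part in degradation of sterol pathway proteins, met the rule in siNT cells only, with differences of 1.23 and 0.28. Lrp1, an endocytic receptor for lipoproteins, met it in siOCT4 cells only, with 0.96 and 1.02.

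Genes of the extracellular matrix had 10 named probes of 30 listed genes, and 4 are members. The medians over the 10 were 1.11 in siNT and 1.00 in siOCT4 cells, and all 10 were above 0 in siNT cells. In siOCT4 cells Col4a5 rounds to 0.0 and Itih5 was at 0.02, and the others were above these. Col1a1, the first chain of type I collagen, lies on chromosome 11 from 94936224 to 94953042. On the log2 scale it read 9.90, 9.87 and 10.39 in siNT-DMSO, 11.14, 11.32 and 11.50 in siNT-POVPC, 10.89, 10.29 and 8.43 in siOCT4-DMSO and 11.81, 11.56 and 11.71 in siOCT4-POVPC. The arrays were tightly grouped except in siOCT4-DMSO, whose SD was 1.28 and whose replicate 3 lay far below the other 2. The folds were 2.41 and 3.55, and the latter was 2.15 without that array. P3h3, a hydroxylase family member that acts on collagen in the endoplasmic reticulum, lies on chromosome 6 from 124841089 to 124857752. It had 8.19, 7.85 and 8.59 in siNT-DMSO, 9.37, 9.85 and 9.53 in siNT-POVPC, 9.29, 8.47 and 6.52 in siOCT4-DMSO and 9.80, 10.06 and 10.06 in siOCT4-POVPC, with folds of 2.60 and 3.67, and the latter was 2.13 without siOCT4-DMSO replicate 3 and 5.57 without replicate 1.

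Fbln2, which encodes fibulin 2, a glycoprotein of elastic fibres and basement membranes, lies on chromosome 6 from 91212455 to 91272540. The arrays gave log2 signals of 8.4, 8.71 and 8.26 in siNT-DMSO, 9.70, 9.56 and 9.80 in siNT-POVPC, 8.58, 8.87 and 7.58 in siOCT4-DMSO and 9.70, 9.24 and 9.43 in siOCT4-POVPC, with folds of 2.34 and 2.16. Spp1, which encodes osteopontin, a secreted phosphoprotein that binds integrins, lies on chromosome 5 from 104435118 to 104441048. It had 5.02, 4.91 and 4.48 in siNT-DMSO, 5.73, 6.27 and 5.63 in siNT-POVPC, 4.95, 5.62 and 2.38 in siOCT4-DMSO and 6.18, 5.97 and 6.07 in siOCT4-POVPC. The siOCT4-DMSO value of 2.38, on slide 2, was far below the other DMSO arrays, and the groups were apart in both backgrounds. Spp1 was 2.09-fold higher in siNT cells and 3.37-fold in siOCT4 cells, or 1.73-fold without siOCT4-DMSO replicate 3 and 5.31-fold without replicate 2. Only 2 of the 3 siOCT4-DMSO arrays were well above background. The 3.37 and 5.31 therefore rest partly on a value near the floor and are not measured sizes. Several other matrix genes met the rule in 1 background. Itih5 (1.11 and 0.02), Dpt (2.11 and 0.27) and P3h4 (1.1 and 0.91) met it in siNT cells, and Bmp1 (0.79 and 1.1) in siOCT4 cells. Itih5 was at 3.25, 2.37 and 2.37 in siNT-DMSO, near the floor, so its 1.11 is not a measured size.

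**Figure D2:**
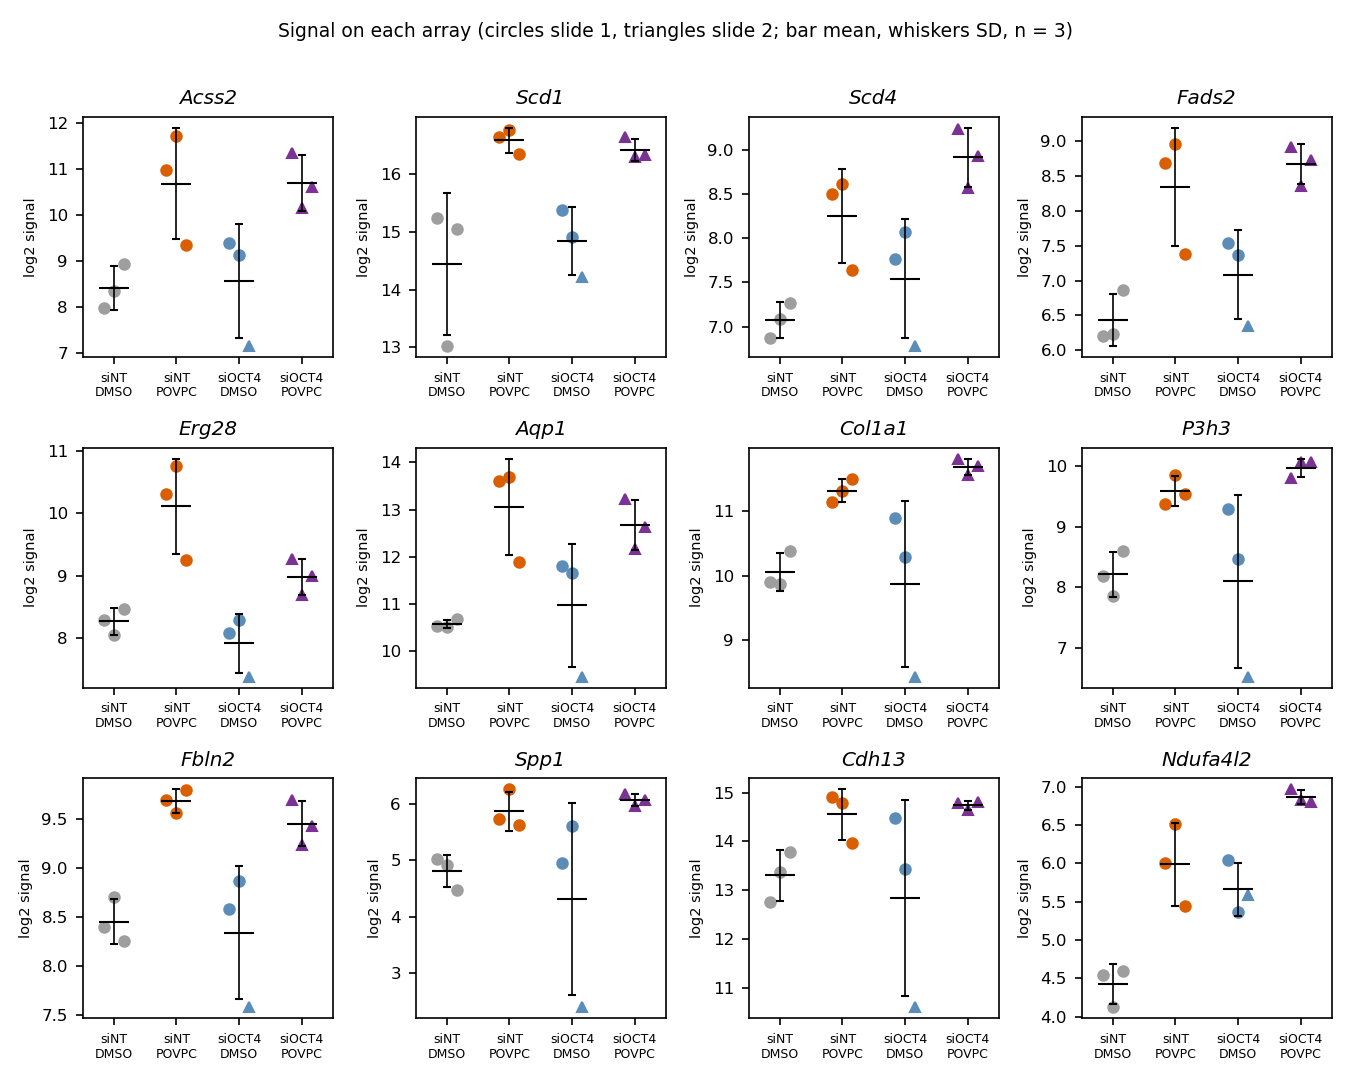
Log2 signal on each array for the members of lipid metabolism (Acss2, Scd1, Scd4, Fads2, Erg28), of the matrix (Col1a1, P3h3, Fbln2, Spp1) and Aqp1, Cdh13 and Ndufa4l2. Circles are arrays of slide 1 and triangles of slide 2, with the mean as a bar and the SD as whiskers (n = 3); for Acss2, Scd4, Erg28, Aqp1, Col1a1, P3h3, Fbln2, Spp1 and Cdh13 the siOCT4-DMSO triangle lies below all other arrays.

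The list of axon guidance and focal adhesion genes had 17 named genes of 36, and 2 are members. Over the 17 the medians were 1.14 in siNT and 0.36 in siOCT4 cells, with 16 and 11 positive. Gnai2, an inhibitory G protein alpha subunit on chromosome 9 from 107614125 to 107635367, had 10.70, 9.37 and 10.18 in siNT-DMSO, 11.40, 11.50 and 11.55 in siNT-POVPC, 11.02, 9.77 and 9.90 in siOCT4-DMSO and 11.47, 11.91 and 11.54 in siOCT4-POVPC. Its POVPC arrays spanned a narrow range in both backgrounds, and the folds were 2.64 and 2.65. Pik3r1, the regulatory subunit of phosphoinositide 3-kinase, on chromosome 13 from 101680563 to 101768217, had 7.93, 6.82 and 7.43 in siNT-DMSO and 8.89, 8.44 and 8.29 in siNT-POVPC. In siOCT4 cells it had 7.81, 7.53 and 7.02 with DMSO and 8.74, 8.47 and 8.44 with POVPC, and the folds were 2.21 and 2.14. Of the other genes listed, Gnai1 (1.21 and 0.60), Dpysl2 (1.26 and 0.82), Pik3ca (1.40 and 0.03), Rock1 (1.78 and -0.49), Robo2 (1.41 and -0.49), Vegfd (2.24 and 2.01) and Camk2d (1.14 and 0.36) met the rule in siNT cells only, and Prkca (0.91 and 1.52) in siOCT4 cells only. Vegfd, a lymphatic growth factor, missed it in siOCT4 cells because siOCT4-DMSO replicate 1, at 7.36, overlapped the POVPC arrays.

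The remaining lists held few members or none. Of the 857 named mRNA probes only 37 are members, so 0 in a list this short is not read as a result about it. None of the 11 named probes for peroxisomal and mitochondrial fatty acid oxidation is a member. Their median difference was 0.89 in siNT cells, with 11 positive, against 0.42 in siOCT4 cells, with 10 positive. Decr2 (2.29 and 0.63), a peroxisomal reductase, 1 of the Echdc1 probes (1.34 and 0.92) and Lonp2 (1.02 and 0.23) met the rule in siNT cells only. None of the 8 probes for the oxidative stress response is a member, with medians of 0.86 and 0.41 and with 7 and 5 positive. Akr1c6 (1.67 and 0.89) and Nxn (1.09 and 1.28) met the rule in siNT cells only. Akr1c6 was at 2.37, 2.84 and 2.37 in siNT-DMSO, near the floor, so its 1.67 is not a measured size. None of the 35 named olfactory, taste and vomeronasal receptor probes is a member, while 7 met the rule in siNT cells and 0 in siOCT4 cells. Of all mRNA probes 1.38% met it in siNT cells, 2.22% in siOCT4 cells, and 0.264% are members. The medians over the 35 were 0.69 and -0.29, with 19 and 9 positive. Some of the 35 were named because they were lower with POVPC in siNT cells, so they could not meet the rule. The 7 were Tas2r124, Tas2r110, Vmn2r67, Olfr1338, Olfr286, Olfr139 and Olfr732, with siNT differences between 1.01 and 1.89. Of 7 histone probes, with medians of 0.82 and -0.01 and with 6 and 3 positive, 1 is a member. This is Hist2h3c2, a histone H3 gene on chromosome 3 from 96238108 to 96239127. Its signal was 8.30, 7.15 and 7.51 in siNT-DMSO, 9.19, 9.66 and 9.06 in siNT-POVPC, 8.03, 7.57 and 8.22 in siOCT4-DMSO and 9.65, 9.26 and 9.48 in siOCT4-POVPC. Histone H3 genes are near-identical copies, so its probe may read several of them. Hist1h2bh (1.05 and -0.17) and Hist2h2ab (1.09 and -0.22) met the rule in siNT cells only.

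Among the 24 named genes outside the lists, Aqp1, a water channel, had the highest siNT fold after Skida1. Aqp1 lies on chromosome 6 from 55336432 to 55348555, and its log2 signal was 10.52, 10.51 and 10.67 in siNT-DMSO, 13.61, 13.69 and 11.88 in siNT-POVPC, 11.79, 11.65 and 9.45 in siOCT4-DMSO and 13.22, 12.16 and 12.63 in siOCT4-POVPC. Its siNT-DMSO arrays differed little, with an SD of 0.09, and the folds were 5.63, or 8.48 without siNT-POVPC replicate 3, and 3.25, or 1.93 without siOCT4-DMSO replicate 3. Capn9, a calcium-dependent protease on chromosome 8 from 124576111 to 124618731, had 5.83, 5.26 and 6.15 in siNT-DMSO, 8.09, 7.91 and 6.47 in siNT-POVPC, 5.99, 5.34 and 4.89 in siOCT4-DMSO and 7.67, 7.19 and 7.29 in siOCT4-POVPC. It was 3.36-fold higher in siNT and 3.94-fold in siOCT4 cells. Cdhr1, a cadherin family member known from photoreceptors, on chromosome 14 from 37077857 to 37098347, had 9.75, 10.45 and 10.69 in siNT-DMSO, 12.19, 12.22 and 11.11 in siNT-POVPC, 10.99, 10.40 and 10.26 in siOCT4-DMSO and 12.28, 11.89 and 12.22 in siOCT4-POVPC. The gap between its groups was wider in siOCT4 cells, and the folds were 2.92 and 2.99.

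Anxa8 encodes an annexin, a protein that binds phospholipids in the presence of calcium, on chromosome 14. The first of its 2 probes had 9.72, 8.56 and 10.49 in siNT-DMSO, 12.02, 11.80 and 10.70 in siNT-POVPC, 10.41, 8.88 and 11.19 in siOCT4-DMSO and 11.51, 11.54 and 11.60 in siOCT4-POVPC. The second had the same order of arrays in 3 of the 4 groups at a higher signal, with folds of 3.35 and 2.26 against 3.78 and 2.62 for the first, whose siOCT4 fold was 1.68 without siOCT4-DMSO replicate 2. Anxa8 was 1 of the few members for which siOCT4-DMSO replicate 3 was the highest of its group, and on slide 2 its POVPC arrays were above that array by 0.36 and 0.46 for the 2 probes. Ms4a4b, a membrane protein known from T cells, on chromosome 19 from 11443573 to 11463549, was highest in the same array of its group. It had 6.38, 5.33 and 6.12 in siNT-DMSO, 7.46, 7.86 and 6.84 in siNT-POVPC, 5.22, 4.41 and 6.57 in siOCT4-DMSO and 7.03, 6.85 and 7.10 in siOCT4-POVPC.

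Gp1bb, a chain of the platelet receptor for von Willebrand factor, on chromosome 16 from 18620319 to 18622403, was dim. Log2 signals were 3.41, 3.59 and 3.99 in siNT-DMSO, 5.23, 5.49 and 4.69 in siNT-POVPC, 4.32, 4.02 and 2.73 in siOCT4-DMSO and 5.82, 5.08 and 5.12 in siOCT4-POVPC, and 2 of 3 arrays in each DMSO group were well above background. Sgsm1, a modulator of small G proteins, on chromosome 5 from 113243220 to 113310786, had 4.33, 2.91 and 3.37 in siNT-DMSO, 5.13, 5.28 and 4.82 in siNT-POVPC, 3.80, 4.07 and 4.10 in siOCT4-DMSO and 5.73, 5.06 and 5.34 in siOCT4-POVPC. The groups did not overlap, with folds of 2.91 and 2.61. Gp1bb was well above background on 10 of the 12 arrays and Sgsm1 on 11.

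The other 16 named members given here differed by 1.11 to 2.55 in siNT and 1.00 to 1.90 in siOCT4 cells. Junction and adhesion genes were Cdh13, a cadherin anchored to the membrane by lipid (1.25 and 1.90), Jam2, a junctional adhesion molecule (1.22 and 1.42), and Pkp3, a plakophilin of desmosomes (1.11 and 1.19). Rab13, a small GTPase of vesicle traffic, had 1.14 and 1.05. Membrane genes were Tmem63a, a channel protein (1.11 and 1.00), Tlcd1, which affects the fatty acids of membrane phospholipids (1.38 and 1.03), and Pla2r1, a receptor for secreted phospholipases A2 (1.85 and 1.35). Secreted or glycan genes were Slurp1, a small Ly6 family protein (2.01 and 1.33), Muc5b, a mucin (1.47 and 1.11), and Gcnt2, which branches glycans (1.16 and 1.25). Nuclear genes were Mxd4, a partner of MAX that opposes MYC (1.52 and 1.18), Tlx2, a homeobox factor (1.16 and 1.15), and Skida1 (2.55 and 1.09). Espl1, the protease separase (1.32 and 1.14), Ndufa4l2, a mitochondrial protein induced in hypoxia (1.57 and 1.20), and 1700001O22Rik (1.73 and 1.13) belong to none of these groups. None of the 3 siOCT4-DMSO arrays read Pla2r1 well above background, so it was at least 1.31-fold higher with POVPC in siOCT4 cells. Only 1 of 3 arrays was well above background for Pla2r1 in siNT-DMSO and for Gcnt2 and Tlx2 in each DMSO group. Those differences rest partly on values near the floor.

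By the smaller of the 2 differences, the members without a name were led by ASMM10AP1B100183319V4. Its log2 signal was 3.70, 3.6 and 4.41 in siNT-DMSO, 8.73, 7.89 and 4.58 in siNT-POVPC, 7.29, 4.17 and 2.38 in siOCT4-DMSO and 7.73, 7.83 and 7.68 in siOCT4-POVPC. The differences of 3.16 and 3.14 rest on arrays far apart within a group, and only 2 of the 3 siOCT4-DMSO arrays were well above background. The siNT value was 4.41 without siNT-POVPC replicate 3 and 2.33 without replicate 1, and the siOCT4 value was 4.47 without siOCT4-DMSO replicate 1 and 2.02 without replicate 3. The next by that measure, ASMM10AP1B102060237V4, had 4.86, 4.08 and 5.06 in siNT-DMSO, 5.80, 5.6 and 7.33 in siNT-POVPC, 4.19, 4.30 and 3.45 in siOCT4-DMSO and 5.64, 5.52 and 5.45 in siOCT4-POVPC. Here siNT-POVPC replicate 3 was the highest array. The other 20 unnamed members had siNT differences between 1.09 and 2.10 and siOCT4 differences between 1.02 and 2.57. Both upper ends moved when an array was left out. The siNT difference of ASMM10AP1B100039866V4 was 1.27 without siNT-DMSO replicate 2, and the siOCT4 difference of ASMM10AP1B107576725V4 was 1.41 without siOCT4-DMSO replicate 3 and 3.76 without replicate 1. For 2 of the 20, ASMM10AP1B112681901V4 and ASMM10AP1B101023609V4, every siNT-DMSO array was too near background to give a level, and POVPC was at least 2.26-fold and at least 1.47-fold higher there.

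**Figure D3:**
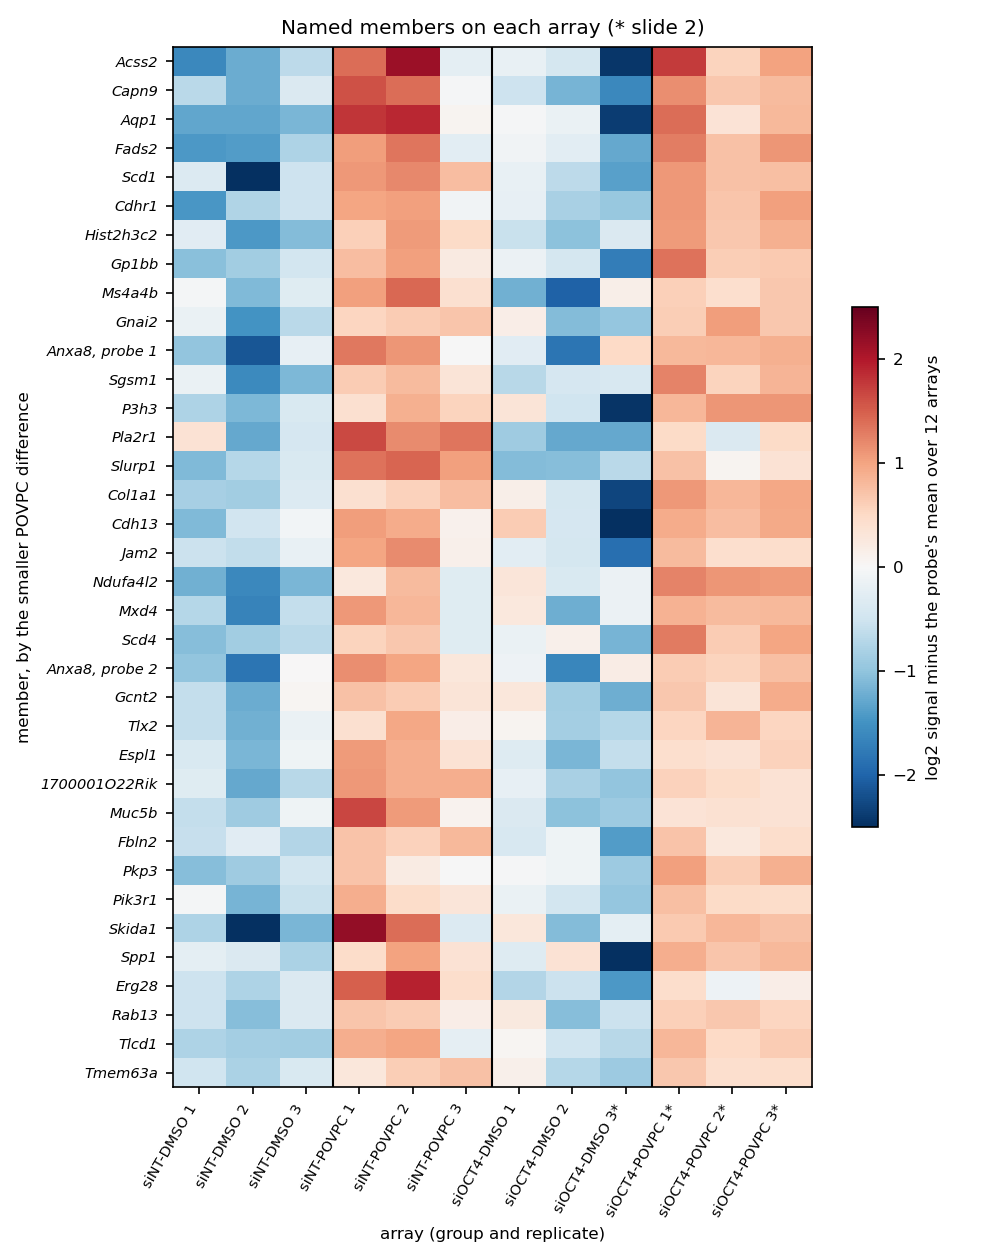
Log2 signal of 36 named members (rows, ordered by the smaller of the 2 POVPC differences) on each of the 12 arrays (columns, asterisks for slide 2), as the difference from the probe's mean over all arrays; red is above and blue below that mean. The DMSO columns are mostly blue and the POVPC columns mostly red, and siNT-POVPC replicate 3 is paler than replicates 1 and 2.

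The members did not move equally on all arrays of a group. Against the siNT-DMSO mean, their median was 1.60 and 1.65 on siNT-POVPC replicates 1 and 2 and 0.98 on replicate 3. Replicate 3 was the lowest siNT-POVPC array for 45 of the 59 and the highest for 10. Those 10 were Gnai2, Col1a1, Fbln2, Tmem63a and 6 without a name, while for Acss2, Scd1, Scd4, Fads2 and Erg28 replicate 3 was the lowest. The siOCT4-POVPC arrays were closer to each other, with medians of 1.41, 1.26 and 1.32 above the siOCT4-DMSO mean. Among DMSO arrays, siNT-DMSO replicate 2 was the lowest of its group for 43 members, and siOCT4-DMSO replicate 1 was the highest of its group for 44. The median within-group SD, pooled over the 4 groups, was 0.58 for the members and 0.32 for all mRNA probes tested. The medians over all mRNA probes stayed between -0.06 and 0.03 on every array, which the quantile normalization largely fixes.

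**Figure D4:**
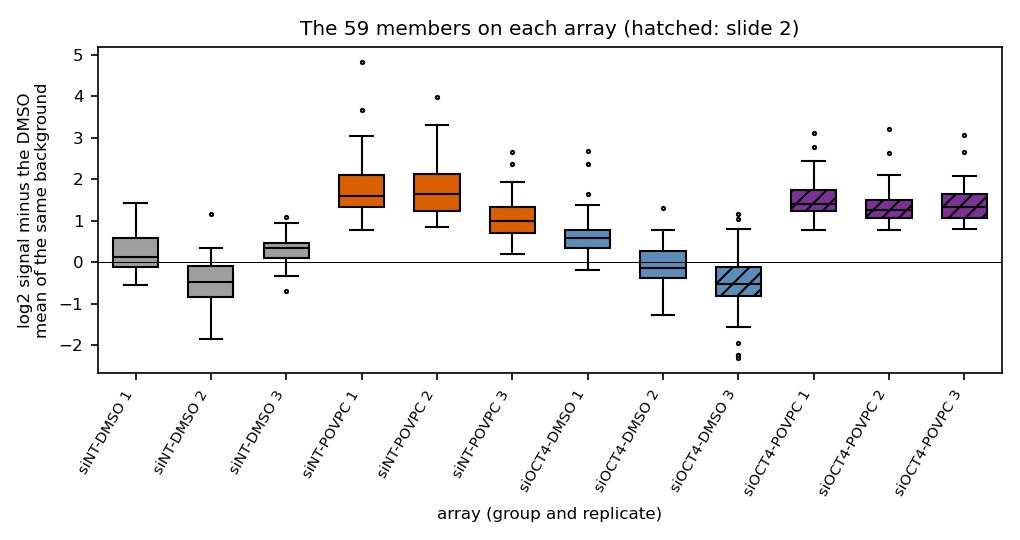
Boxes give the spread over the 59 members of the log2 signal on each array minus the DMSO mean of the same siRNA background (line median, box quartiles, whiskers 1.5 times the box, dots beyond), hatched for slide 2. Medians were 1.60, 1.65 and 0.98 on the siNT-POVPC arrays and 1.41, 1.26 and 1.32 on the siOCT4-POVPC arrays, and siOCT4-DMSO replicate 3 was the lowest of its group at -0.52.

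The siNT comparison lies within slide 1, and the siOCT4 comparison lies mostly across slides. siOCT4-DMSO replicate 3, the only DMSO array on slide 2, was the lowest siOCT4-DMSO array for 38 of the 59 members, with a median of -0.77 against the mean of replicates 1 and 2. Within slide 2, where siOCT4-POVPC can be set only against this array, the median difference was 1.75, and 51 of 59 members were at 1 or more. The other 8 lay between 0.30 and 0.99, and 4 genes with a name were among them, Anxa8 with both its probes, Ms4a4b, Mxd4 and Skida1. Without replicate 3, on the authors' values, 39 of the 59 members kept both differences at 1 or more, and 42 did without replicate 2 and 59 without replicate 1. In siNT cells 43 members did without siNT-DMSO replicate 2. The siOCT4 fold moved by over 1.5 times for 10 members without siOCT4-DMSO replicate 3, and for Cdh13 it became 1.72, or 6.6 without replicate 1. The siNT fold of Skida1 was 9.63 without siNT-POVPC replicate 3. The part of the slide in these differences was not tested.

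Long noncoding RNAs annotated beside the members' genes gave a second reading at some loci. The lncRNA annotation is held here only in part, and it too lists RNAs picked because POVPC altered them in the siNT background, so the siNT differences carry no independent weight. The antisense transcript BC114417 lies on chromosome 19 from 44396324 to 44396927, inside Scd1 and on the opposite strand. On the log2 scale it read 4.90, 4.61 and 4.72 in siNT-DMSO and 7.26, 7.20 and 6.67 in siNT-POVPC. In siOCT4 cells it was 5.59, 5.18 and 5.07 with DMSO and 7.51, 6.88 and 7.02 with POVPC. The differences were 2.30 and 1.86 beside 2.15 and 1.58 for Scd1, and no POVPC array overlapped a DMSO array. Noncoding transcripts that overlap exons of the same strand were 1.83 and 0.92 higher for Tlcd1, 1.55 and 1.02 for Erg28, 1.16 and 1.49 for Cdh13 and 0.99 and 0.45 for 1700001O22Rik, and their probes may read the coding transcripts too. A noncoding transcript annotated to Acss2 that begins beyond its 3′ end was 2.21 higher in siNT cells and 0.67 in siOCT4 cells, where the arrays overlapped.

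The effect of Oct4 knockdown, averaged over DMSO and POVPC, was not used in the choice and was tested. All siNT arrays lay on slide 1, while siOCT4-DMSO replicate 3 and all siOCT4-POVPC arrays lay on slide 2. The main fit has no term for the slide. Its calls, for members and for all mRNA probes, therefore cannot be fully told apart from the slide. Of the 59 members 1 was called higher and 1 lower in siOCT4 than in siNT cells (limma over all 54506 probes, Benjamini-Hochberg adjusted p under 0.05 and a fold of at least 1.5). That is 1.7% in each direction. Among the 20625 mRNA probes of the fit, 7.85% passed upwards and 5.05% downwards, 1620 and 1042 probes. The median pooled within-group SD was 0.58 for the members and 0.32 for all mRNA probes tested. An equal difference is therefore harder to call in a member, and the shares are not like for like. With normexp background correction limma called 0 members in either direction, against 4.57% of all mRNA probes higher and 1.97% lower. At an unadjusted p under 0.05 in limma 3 members were higher and 4 lower there. The share of all mRNA probes at that p is not given here, so these counts are not read as a result. With 75th percentile scaling 1 was called higher and 4 lower, 1.7% and 6.8% of the members against 6.6% and 15.45% of all mRNA probes. With that scaling the mRNA calls became 1362 higher and 3186 lower, and the median of all mRNA probes moved from -0.07 to -0.20. The median knockdown difference of the members was 0.12, or -0.01 with 75th percentile scaling, positive for 38 and negative for 21. Standard errors reached 0.82 on the log2 scale. The members' median was 0.54 with the slide as a block, which leans on siOCT4-DMSO replicate 3, and 0.34 in DMSO on slide 1 alone. With the block 8 members were called higher, 13.6% against 11.0% of all mRNA probes, and 1 lower, 1.7% against 8.02%. In DMSO on slide 1 alone 1 member passed upwards, 1.7% against 2.32% of all mRNA probes, and 0.402% of all passed downwards. Both settings draw on values that chose the members: the block takes the slide shift from siOCT4-DMSO replicate 3 against replicates 1 and 2, and the slide 1 contrast uses DMSO arrays only. Their values are therefore a description and no test of the members. With the block Spp1 was at 1.80, Col1a1 at 1.53, P3h3 at 1.71 and Cdh13 at 2.11, against -0.14, 0.09, 0.13 and -0.14 in the averaged comparison, and on slide 1 Aqp1 was at 1.15 against 0.00.

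Ndufa4l2, the member called higher, lies on chromosome 10 from 127514967 to 127517154. The arrays gave log2 signals of 4.54, 4.12 and 4.60 in siNT-DMSO, 6.0, 6.52 and 5.44 in siNT-POVPC, 6.04, 5.36 and 5.59 in siOCT4-DMSO and 6.97, 6.83 and 6.8 in siOCT4-POVPC. With DMSO the siOCT4 arrays were all above the siNT arrays, and so they were with POVPC. With POVPC the siNT arrays lay on slide 1 and the siOCT4 arrays on slide 2, so the siRNA cannot be told apart from the slide there. The averaged difference was 1.06 (SE 0.19, adjusted p = 0.00286 from limma). It was 0.47 with normexp background correction, under the fold limit. In DMSO on slide 1 alone it was 1.28, which is a description and no test of this member.

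Pla2r1, the member called lower, lies on chromosome 2 from 60417543 to 60553308. Log2 signals were 4.01, 2.37 and 3.23 in siNT-DMSO, 5.31, 4.84 and 5.0 in siNT-POVPC, 2.77, 2.38 and 2.38 in siOCT4-DMSO and 4.14, 3.30 and 4.13 in siOCT4-POVPC. The arrays overlapped with DMSO and not with POVPC, where the siRNA cannot be told apart from the slide. Only 2 of the 6 siOCT4 arrays were well above background. With no siOCT4-DMSO array and 1 of 3 siNT-DMSO arrays well above background, the averaged difference of -0.94 (SE 0.26, adjusted p = 0.0261 from limma) rests partly on values near the floor and is not a measured size. It was -0.36 with a floor of 20 and -0.21 with normexp background correction, both without a call. With the slide as a block it was -0.81, which is a description and no test of this member. The call was also lost without siNT-DMSO replicate 3 (-0.93), siNT-POVPC replicate 1 (-0.87), siOCT4-DMSO replicate 2 (-0.91) or siOCT4-POVPC replicate 2 (-0.80). There the difference stayed about as large and the adjusted p from limma lay between 0.0542 and 0.0646. With an array left out the groups are unequal and the comparison draws on differences that chose the members, so these values too are a description.

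The other members of the lists gave no call in the averaged comparison without the block. Scd4 was 0.57 higher (SE 0.25, adjusted p = 0.126 from limma) and Fads2 0.49 higher (SE 0.30, adjusted p = 0.268), while Scd1 differed by 0.12 (SE 0.35) and Acss2 by 0.08 (SE 0.47). Erg28 was at -0.74 (SE 0.25, adjusted p = 0.0587 from limma). The matrix members Col1a1, P3h3, Fbln2 and Spp1 lay between -0.17 and 0.13. Slurp1 passed the p threshold at -0.56 (SE 0.17, adjusted p = 0.0383 from limma) but not the fold limit. A p that misses the threshold does not show that these levels were equal.

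**Figure D5:**
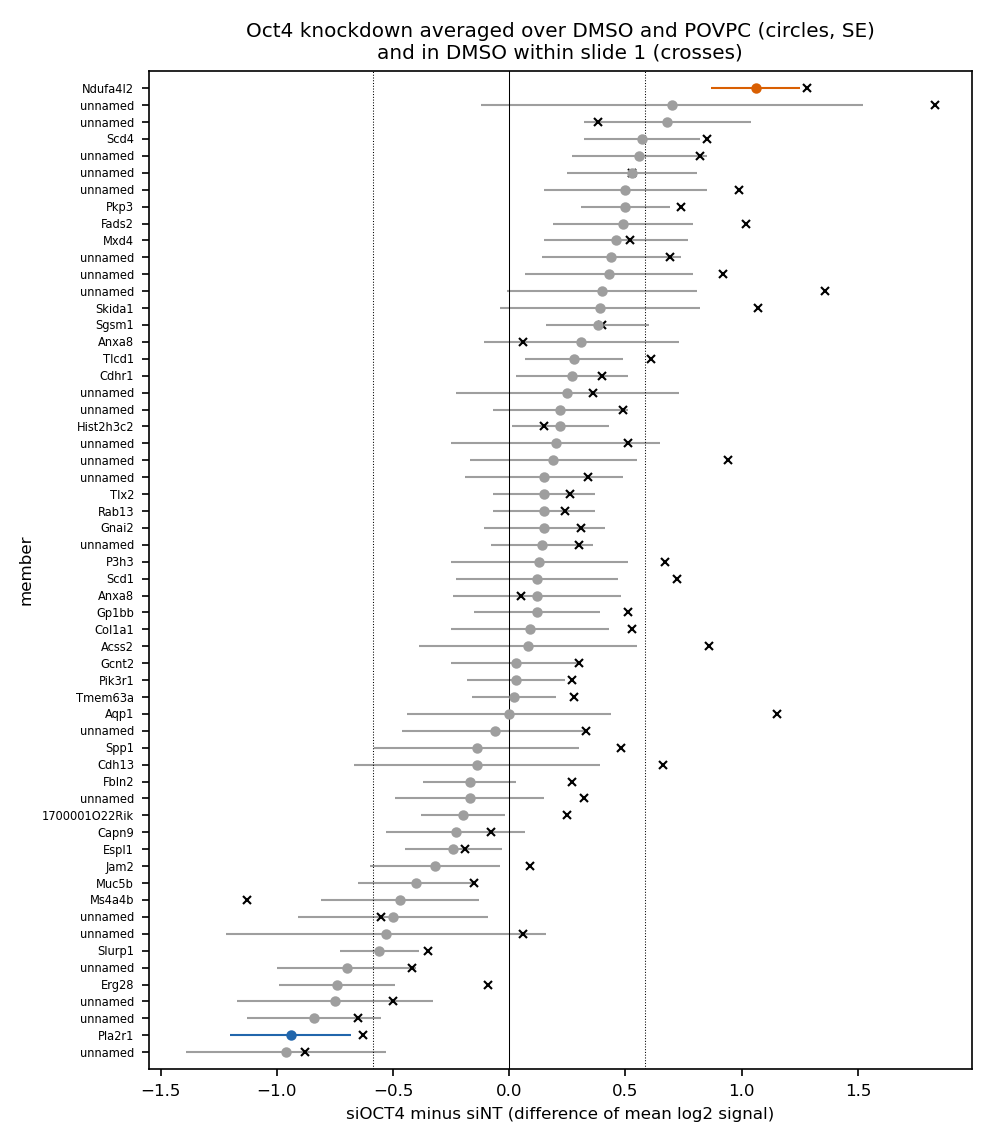
Difference of mean log2 signal between siOCT4 and siNT for 58 of the 59 members, as circles with the standard error for the average over DMSO and POVPC and as crosses for DMSO on slide 1 alone; dotted lines mark 1.5-fold. Ndufa4l2 at 1.06 and Pla2r1 at -0.94 are the 2 members called, in colour, and for Acss2, Aqp1 and Skida1 the slide 1 value lies well to the right of the average.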

How the data were processed

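Total RNA of 12 samples was read on Arraystar mouse LncRNA arrays (version 4.0, 1 colour, Cy3) scanned with Agilent Feature Extraction 11.0.1.1. The authors deposited 1 scanner file per array, with processed signal intensity, and a table of log2 values that they had quantile normalized. Members were chosen on that log2 table. Values printed here were computed from the deposited intensity: outlier spots were left out, signals under 5 were set to 5, and the arrays were quantile normalized on the log2 scale. No counts exist for arrays, so their number limits the precision. The fit took probes that 3 or more arrays read well above background (54506 of 60641, of which 20625 mRNA).

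Knockdown (siOCT4 minus siNT, averaged over DMSO and POVPC) was fitted over the 4 groups with limma 3.58.1 in R 4.3.3, with Benjamini-Hochberg adjustment over all probes and a call at adjusted p under 0.05 and 1.5-fold. The fit was tested on simulated data, but the outcome is not given here and lends the calls no weight. P-values measure only the spread between these samples, which may be technical. "At least" folds use, per array, the higher of the lowest signal well above background and the dim probe's own. Gene names and coordinates came from the study's annotation of altered RNAs (857 mRNA probes), whose own fold changes and p-values were not used; all 37 named probes overlap the gene of that name in the RefSeq table of GRCm38.p6, though whether a probe lies in an exon or UTR was not determined. Named on all arrays were the 12 named members with the highest smaller difference, those in a gene list, those called with the knockdown, and the 2 leading unnamed ones. A named member is not reported here, though it stays in the counts over all members. The members and gene lists were chosen with earlier results of these data known. Alternatives were other scalings, floors, filters, background correction, slide and replicate blocks and each array left out.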

Additional observations from a re-analysis of the deposited data

How the results depend on the processing

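The choice of members fixes the direction of the POVPC medians, so only their size is given here. The Ndufa4l2 and Pla2r1 differences kept their direction in every alternative that included them, and the filter on all arrays dropped Pla2r1. With normexp background correction 27 probes met the rule, the median POVPC differences of the 59 members were 1.063 in siNT and 0.978 in siOCT4 cells, and limma called 0 members higher and 0 lower with the knockdown (3 and 4 at an unadjusted p under 0.05). This correction used the median spot signal, a choice made after seeing the data. With a floor of 20 the siOCT4 median was 1.214, and within slide 2 it was 1.75. Leaving out each array gave siOCT4 medians from 1.122 without siOCT4-DMSO replicate 3 to 1.514 without siOCT4-DMSO replicate 1. In the knockdown, the slide as a block gave 8 members called higher, 13.6% against 11.0% of all mRNA probes. The slide block and slide 1 values are a description and no test of the members. With no fold limit 2 members passed downwards, Pla2r1 and Slurp1, and the share of all mRNA probes at that setting is not given here. Members called lower were 4 with 75th percentile scaling. They were 0 with a floor of 20, with only probes well above background on all arrays, or within slide 1 (4, 4 and 1 at an unadjusted p under 0.05 in limma). Of all mRNA probes 15.45%, 3.83%, 4.61% and 0.402% were called lower with that scaling, that floor, that filter and within slide 1. Leaving out each array gave 1 to 3 called higher, with 2 without siNT-POVPC replicate 1 and 3 without siOCT4-DMSO replicate 3. It gave 0 to 4 called lower, with 4 when siNT-DMSO replicate 2 was left out and 4 when siNT-POVPC replicate 3 was. With each array left out 6.73% to 9.64% of all mRNA probes were called higher and 3.79% to 6.6% lower. The share of members in these settings was at most 5.1% higher and 6.8% lower. With an array left out the groups are unequal, so the comparison is no longer separate from the differences that chose the members. Counts and p-values of members in those fits are a description. Ndufa4l2 lost its call with normexp (0.47, under the fold limit). Outside the slide settings its adjusted p from limma ran from 0.0015 to 0.01. Pla2r1 lost its call with normexp and with a floor of 20. It also lost it without siNT-DMSO replicate 3, siNT-POVPC replicate 1, siOCT4-DMSO replicate 2 or siOCT4-POVPC replicate 2. Outside the slide settings its adjusted p from limma ran from 0.00439 to 0.0646. Among all mRNA probes the calls were 1620 higher and 1042 lower, against 2276 and 1655 with the slide as a block, 942 and 407 with normexp and 478 and 83 within slide 1. Correlations of deviations between same-numbered replicates ran from -0.199 to 0.362, and 3 of 18 were over 0.1, so the numbers were not taken to pair the samples. The replicate block gave 1 member called higher and 2 lower, 1.7% and 3.4% against 7.68% and 4.98% of all mRNA probes. Dim members such as Pla2r1, Gcnt2 and Tlx2 are limited by signal over background.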
